A study of Mus musculus with 15 samples.

Results

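Vnn1, Urah, Lgals3, Anxa2, Grpr and Cpne8 were each more abundant in the GCEPB+ cells of the mouse ventricular-subventricular zone (V-SVZ) than in either of the 2 neighbouring sorted populations, GCEPB- and GCPB+. These 6 genes, out of 32735 gene symbols in the count table, were chosen by that pattern in their measured levels, so the comparisons of GCEPB+ with GCEPB- and with GCPB+ are given for them as a description of their levels, and no p-value is given for them there. All 6 passed the filter on low counts, as did 16302 symbols in all. RNA was sequenced from 15 libraries, 3 for each of 5 sorted populations, all from hGFAP::GFP mice, a line in which a human GFAP promoter drives green fluorescent protein (GFP), with male and female animals pooled. GCEPB+ cells were V-SVZ cells positive for GFP, PDGFRβ, CD133 and EGFR and negative for CD24. GCEPB- cells carried the same markers except that they were PDGFRβ negative, and GCPB+ cells the same except that they were EGFR negative. GPB+ cells were V-SVZ cells positive for GFP and PDGFRβ and negative for CD133, EGFR and CD24, and CTX cells were GFP-positive astrocytes of the cortex. The GFAP promoter is active in astrocytes as well as in stem cells, so GFP alone does not separate these.

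The V-SVZ lines the lateral ventricles and holds GFAP-expressing neural stem cells in adult rodents. Quiescent stem cells lack EGFR, and stem cells that enter the cell cycle gain it before they give rise to transit-amplifying cells and neuroblasts. The 6 genes encode proteins of different families. Vnn1 encodes vanin 1, a membrane-anchored pantetheinase that releases pantothenate and cysteamine. Urah encodes 5-hydroxyisourate hydrolase, which acts after urate oxidase in the breakdown of urate. Lgals3 encodes galectin-3, a lectin that binds β-galactosides inside and outside the cell and is also known from microglia and macrophages. Anxa2 encodes annexin A2, a calcium-dependent phospholipid-binding protein that forms a complex with S100A10 and binds plasminogen and its activator at the cell surface. Grpr encodes the G-protein-coupled receptor for gastrin-releasing peptide, and Cpne8 encodes a copine, one of a family of calcium-dependent phospholipid-binding proteins with C2 domains.

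Promoter windows of 300 bases, from 250 before to 50 after the annotated start, were matched for 5 of the 6 genes in RefSeq (GRCm38.p6), with 2 overlapping windows for Urah. The windows of Anxa2, Lgals3 and Urah are shown because these genes had the largest differences between V-SVZ and cortical cells in the comparison of GPB+ with CTX, and capitals mark the motifs found.
Anxa2, chr9:69453433-69453732, + strand: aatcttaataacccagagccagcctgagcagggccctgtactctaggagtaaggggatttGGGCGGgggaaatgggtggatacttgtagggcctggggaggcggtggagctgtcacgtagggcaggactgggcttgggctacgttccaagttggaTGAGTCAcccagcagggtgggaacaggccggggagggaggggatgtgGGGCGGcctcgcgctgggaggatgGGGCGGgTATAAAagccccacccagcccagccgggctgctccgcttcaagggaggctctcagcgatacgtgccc
Lgals3, chr14:47373610-47373909, + strand: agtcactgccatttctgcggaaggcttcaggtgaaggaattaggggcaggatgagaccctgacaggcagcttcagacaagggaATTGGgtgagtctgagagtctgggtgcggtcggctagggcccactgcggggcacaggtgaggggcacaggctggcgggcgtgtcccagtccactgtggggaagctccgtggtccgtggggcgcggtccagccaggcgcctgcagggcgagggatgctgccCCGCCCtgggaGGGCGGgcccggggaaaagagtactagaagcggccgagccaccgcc
Urah, the upstream window, chr7:140834888-140835187, + strand: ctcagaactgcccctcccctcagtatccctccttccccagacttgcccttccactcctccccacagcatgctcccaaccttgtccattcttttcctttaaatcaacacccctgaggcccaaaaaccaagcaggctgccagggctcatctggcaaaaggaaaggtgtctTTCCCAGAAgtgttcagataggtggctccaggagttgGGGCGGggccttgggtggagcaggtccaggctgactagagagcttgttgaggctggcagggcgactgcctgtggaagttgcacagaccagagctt
The Anxa2 window held an AP-1 motif (TGACTCA, here as TGAGTCA on the other strand) 95 bases before the start, a TATAAA at -17 and 3 GGGCGG boxes of the Sp/KLF kind at -190, -48 and -24. In the Lgals3 window there was ATTGG, the reverse complement of the NF-Y motif CCAAT, at -167, and a pair of Sp/KLF boxes as CCGCCC at -7 and GGGCGG at 4 bases after the start. The Urah window had GGGCGG at -45 and TTCCCAGAA, a match to the STAT pattern TTCNNNGAA, at -82. On both strands of all 32851 promoter windows, 5.20% held the AP-1 motif, 13.6% TATAAA, 35.7% the Sp/KLF box, 37.4% CCAAT and 8.30% the STAT pattern. Grpr had ATTGG at -53, and Cpne8 had CCGCCC at -135 and GGGCGG at -116. No match was found in any of the 6 windows for CRE (TGACGTCA), TEAD (AGGAATG), NRF2 (TGACNNNGC), E-box (CACGTG), Sox (ACAAAG), ETS (ACCGGAAG), PPAR-RXR or NFI motifs. The Sp/KLF and NF-Y motifs, the only ones found in more than 1 of the genes, were also the most frequent over all windows.

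The libraries held 12466038 to 33665687 counts each, and levels are given in CPM, the counts per 1000000 of TMM-adjusted library size, unless stated. Of the sorting markers, Pdgfrb stood at 32.6 to 66.6 CPM in GCEPB+, 1.17 to 3.17 CPM in GCEPB- and 296 to 417 CPM in GCPB+, and Egfr at 455 to 602 CPM in GCEPB+, 765 to 852 CPM in GCEPB- and 105 to 210 CPM in GCPB+. Cd24a, the RNA of the marker used for exclusion, was at 12.6 to 21.4 CPM in GCEPB+, 64.1 to 96.7 CPM in GCEPB- and 0.66 to 1.23 CPM in GCPB+. The proliferation gene Mki67 was at 331 to 434 CPM in GCEPB+, 569 to 836 CPM in GCEPB- and 4.65 to 7.59 CPM in GCPB+, and the astrocyte water channel gene Aqp4 at 157 to 419 CPM in GCEPB+, 39.0 to 49.2 CPM in GCEPB- and 1421 to 1989 CPM in GCPB+. GCEPB+ replicate 1 stood apart from the other GCEPB+ libraries in its mature oligodendrocyte genes, whose summed level over 9 genes was 62.0 CPM in replicate 1, 817 CPM in replicate 2 and 596 CPM in replicate 3. In sorted bulk RNA, fewer cells of a type and less RNA per cell cannot be told apart.

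Vnn1 had 75.0, 78.4 and 76.9 CPM in the 3 GCEPB+ libraries, against 22.3, 27.7 and 25.2 CPM in GCEPB- and 17.8, 12.5 and 19.8 CPM in GCPB+. It was at 20.3, 16.1 and 15.2 CPM in GPB+ and at 7.58, 2.99 and 3.85 CPM in CTX. The GCEPB+ libraries were within 1.05-fold of one another, and the lowest was 2.70 times the highest of the other 12. The order of group means was GCEPB+, GCEPB-, GPB+, GCPB+ and CTX, and the only neighbours in that order whose libraries overlapped were GPB+ and GCPB+. The gene lies on chromosome 10 at 23894688 to 23905343 (mm10).

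Urah had 30.5, 21.0 and 25.4 CPM in GCEPB+, against 2.34, 2.38 and 2.13 CPM in GCEPB- and 6.26, 10.2 and 9.73 CPM in GCPB+. GPB+ libraries had 5.56, 5.11 and 6.18 CPM, and the CTX libraries only 3, 2 and 4 counts, or 0.215, 0.154 and 0.168 CPM. The GCEPB+ mean was 11.2 times that of GCEPB- and 2.94 times that of GCPB+, and no 2 groups overlapped in the order GCEPB+, GCPB+, GPB+, GCEPB- and CTX. On the FPKM scale GCPB+ and GPB+ overlapped. Urah (chromosome 7, 140835496 to 140837968) shares 748 bases with C330022C24Rik, whose mean was 1.80 CPM in GCEPB+, 0.037 CPM in GCEPB- and 0.684 CPM in GCPB+, and the kit does not mark strand. Reads of these genes in the shared stretch cannot be told apart.

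Lgals3 had 101, 58.0 and 56.3 CPM in GCEPB+, against 23.5, 31.0 and 25.3 CPM in GCEPB- and 21.4, 17.1 and 15.4 CPM in GCPB+. It had 20.8, 15.7 and 19.4 CPM in GPB+ and 1.43, 0.384 and 1.42 CPM in CTX. GCEPB+ replicate 1 was the high library, 1.79 times the lowest of its group, yet even that lowest library was 1.82 times the highest of the other 12. Means ran in the order GCEPB+, GCEPB-, GPB+, GCPB+ and CTX, with overlap only between GPB+ and GCPB+. Lgals3 lies on chromosome 14 at 47373860 to 47386167.

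Anxa2 had 32.1, 33.9 and 32.4 CPM in GCEPB+, against 1.64, 2.91 and 3.94 CPM in GCEPB- and 7.81, 10.2 and 19.6 CPM in GCPB+. It had 13.1, 9.87 and 22.6 CPM in GPB+ and 0.715, 0.230 and 1.76 CPM in CTX. The GCEPB+ libraries lay within 1.06-fold of one another, while GCPB+ and GPB+ were spread and overlapped. The lowest GCEPB+ library was 1.64 times the highest of the neighbours and 1.42 times the highest of all others, GPB+ replicate 3. GCEPB- and CTX libraries overlapped at the low end. Anxa2 (chromosome 9, 69453683 to 69491785) contains the microRNA gene Mir3109, which had 0 counts in all libraries.

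Grpr had 18.2, 31.0 and 8.69 CPM in GCEPB+, against 3.31, 4.75 and 3.94 CPM in GCEPB- and 0.958, 0.820 and 1.42 CPM in GCPB+. It had 1.30, 4.46 and 1.63 CPM in GPB+ and 0.429, 2.07 and 0.419 CPM in CTX. It was the most variable of the 6 genes among GCEPB+ libraries, with the highest 3.57 times the lowest. All 3 GCEPB+ libraries were still above the other 12, whose highest was GCEPB- replicate 2, and below GCEPB+ every pair of neighbours in the order of means overlapped. Grpr lies on chromosome X at 163513904 to 163549736.

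Cpne8 had 19.55, 18.003 and 13.61 CPM in GCEPB+, against 5.13, 6.54 and 7.08 CPM in GCEPB- and 2.80, 4.10 and 7.73 CPM in GCPB+. It had 4.26, 3.74 and 5.57 CPM in GPB+ and 3.86, 5.14 and 3.89 CPM in CTX, so that the 4 groups other than GCEPB+ overlapped in a run. The deposited FPKM gave a smaller difference: 16.8, 15.7 and 16.2 in GCEPB+, against 8.79, 8.32 and 12.8 in GCEPB- and 9.44, 11.6 and 14.8 in GCPB+. On the FPKM scale the GCEPB+ mean was 1.63 times that of GCEPB- and 1.36 times that of GCPB+, where CPM gave 2.73 and 3.50 times, and the lowest GCEPB+ library was only 1.06 times the highest neighbour. Cpne8 lies on chromosome 15 at 90487481 to 90679388.

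**Figure D1:**
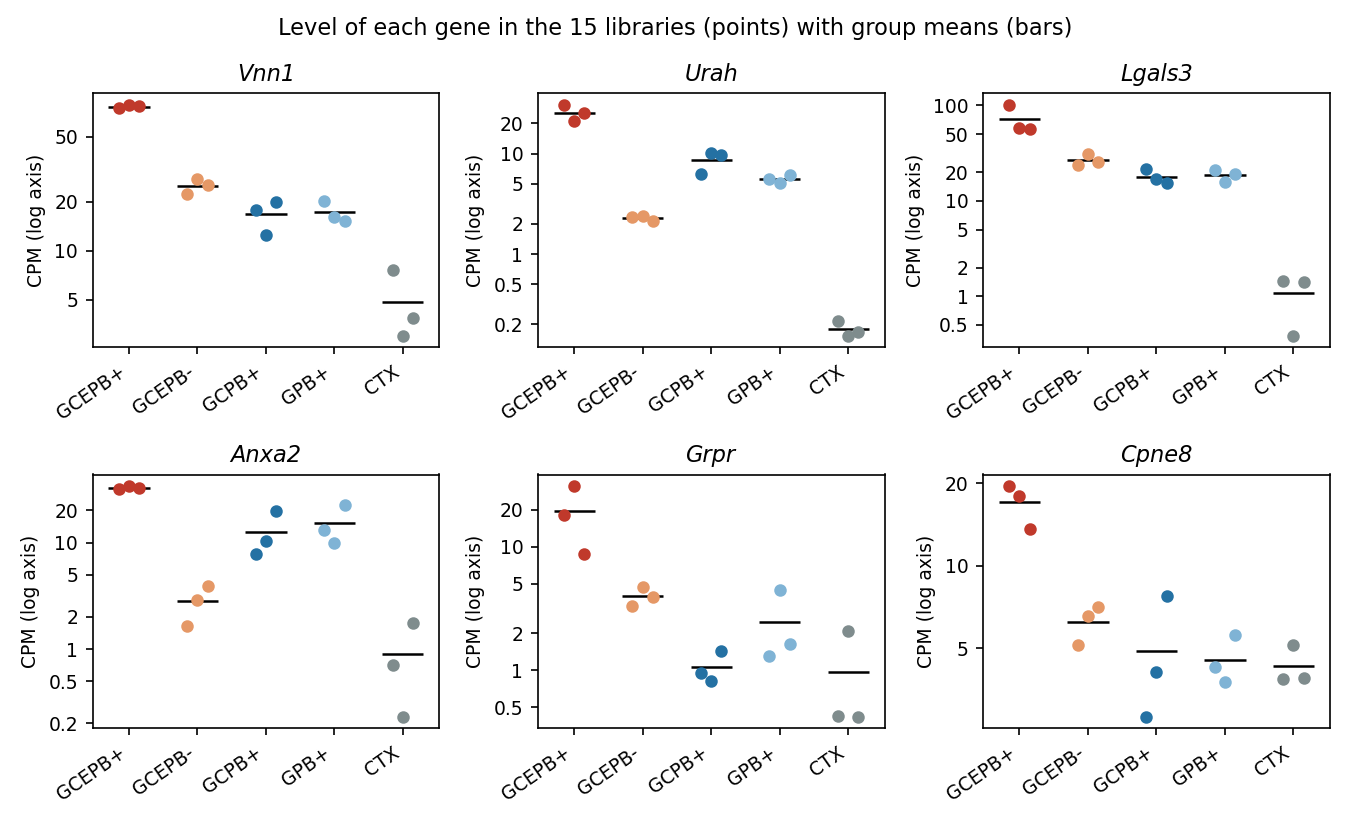
Level of each of the 6 genes in CPM on a log axis, which differs between panels, with each point 1 library and each bar the mean of 3. All GCEPB+ points lie above the points of the other 4 groups for each gene, closest for Anxa2, where the gap to the highest GPB+ library is 1.42-fold.

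All 6 genes had every GCEPB+ library above the 6 libraries of GCEPB- and GCPB+, a pattern that 1.61% of the genes tested showed, and above all 12 other libraries, as 0.871% did. Since the genes were chosen for this pattern, that count says nothing further about them. Levels can be compared between genes per length, as FPKM. In GCEPB+ cells the mean FPKM was 51.2 ± 8.9 for Urah, 44.4 ± 16.1 for Lgals3, 25.7 ± 0.6 for Vnn1, 20.9 ± 1.1 for Anxa2, 16.2 ± 0.6 for Cpne8 and 6.18 ± 3.60 for Grpr (SD, n = 3). On this scale the GCEPB+ libraries of Urah and Lgals3 overlapped, and those of no other neighbours in this order did. In CTX the mean FPKM was 0.46 ± 0.24 for Urah, 0.68 ± 0.30 for Lgals3, 1.61 ± 0.86 for Vnn1, 0.52 ± 0.40 for Anxa2, 8.79 ± 4.29 for Cpne8 and 0.29 ± 0.25 for Grpr. Cpne8 was the only one of the 6 with a mean above 2 FPKM there. Its FPKM and counts disagree, as described next, so its place among the 6 on this scale is uncertain in both groups.

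The count and FPKM tables can be set against each other through the ratio of CPM on total counts to FPKM, which is the transcript length in kilobases that the pair implies. That ratio stayed within 1.38-fold over the 15 libraries for Vnn1, and within 1.78 to 1.80-fold for Lgals3, Anxa2 and Grpr. It ranged 2.34-fold for Urah, whose CTX values rest on 2 to 4 counts. For Cpne8 it ranged 5.37-fold, with means of 1.22 kilobases in GCEPB+, 0.761 in GCEPB-, 0.335 in GCPB+, 0.462 in GPB+ and 0.494 in CTX. Over 8765 genes held to a minimum of 3 CPM and 1 FPKM, the median range was 1.26-fold, and only 4 reached that of Cpne8. Cpne8 itself had 2.80 CPM in GCPB+ replicate 1, below that minimum, and Urah, Lgals3, Anxa2 and Grpr were below it in CTX. How often genes at such low levels reach the Cpne8 range was not counted. Since the Cpne8 ratio differed between groups, the size of its difference depends on which deposited table is read.

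**Figure D2:**
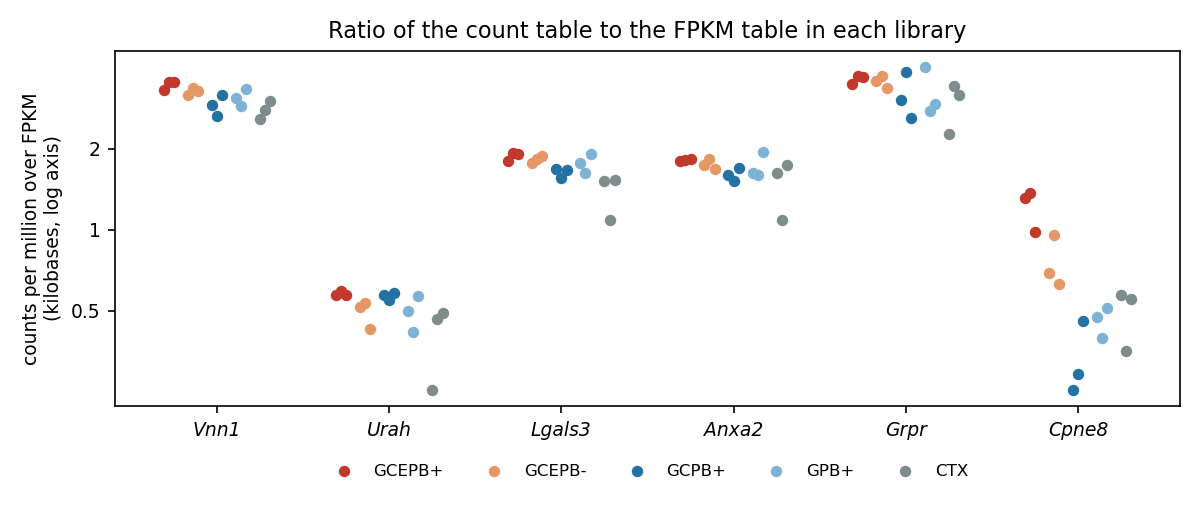
Ratio of CPM on total counts to FPKM, in kilobases on a log axis, for each of the 6 genes; each point is 1 library, coloured by group. The ratios range at most 1.80-fold for 4 of the genes, while Cpne8 reaches 1.37 kilobases in GCEPB+ and 0.255 in GCPB+.

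GCEPB+ cells share EGFR with GCEPB- and PDGFRβ with GCPB+. Each GCEPB+ library was fitted as a mix of the mean profiles of GCPB+ and GCEPB-, using 1956 genes other than the 6 that differed at least 4-fold between them with no overlap of libraries and a mean of at least 20 CPM in the higher one. The share of GCPB+ fitted by least squares was 22.6%, 35.5% and 29.9% in GCEPB+ replicates 1, 2 and 3, and 24.6%, 36.1% and 30.3% with the 659 genes that differed at least 16-fold. Taken as a median over the 1956 genes it was lower, at 17.3%, 30.6% and 26.2%. These shares are weights on TMM-adjusted CPM, not shares of total RNA. Over 11715 genes the median of the observed level over that predicted was 0.897 to 0.955, with a 99th percentile of 2.05 to 2.26.

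All 6 genes stood above the prediction in each library. Observed levels were 5.40 to 6.40 times the predicted level for Anxa2, 4.60 to 8.16 times for Urah, 3.23 to 3.55 times for Vnn1, 2.78 to 10.5 times for Grpr, 2.35 to 4.10 times for Lgals3 and 2.33 to 3.29 times for Cpne8. No mix can exceed the higher of the 2 neighbour means, and 4.81% of genes tested had all 3 GCEPB+ libraries above that bound. The lowest library of each gene exceeded it by 2.99 times for Vnn1, 2.56 times for Anxa2, 2.41 times for Urah, 2.18 times for Cpne8, 2.17 times for Grpr and 2.12 times for Lgals3. A mix that also allowed GPB+ and CTX cells changed the bound for Anxa2 alone, which then stood 2.11 times above it at the lowest. Genes chosen to exceed both neighbours exceed any mix of them by construction, so these ratios describe how far, and are no test.

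**Figure D3:**
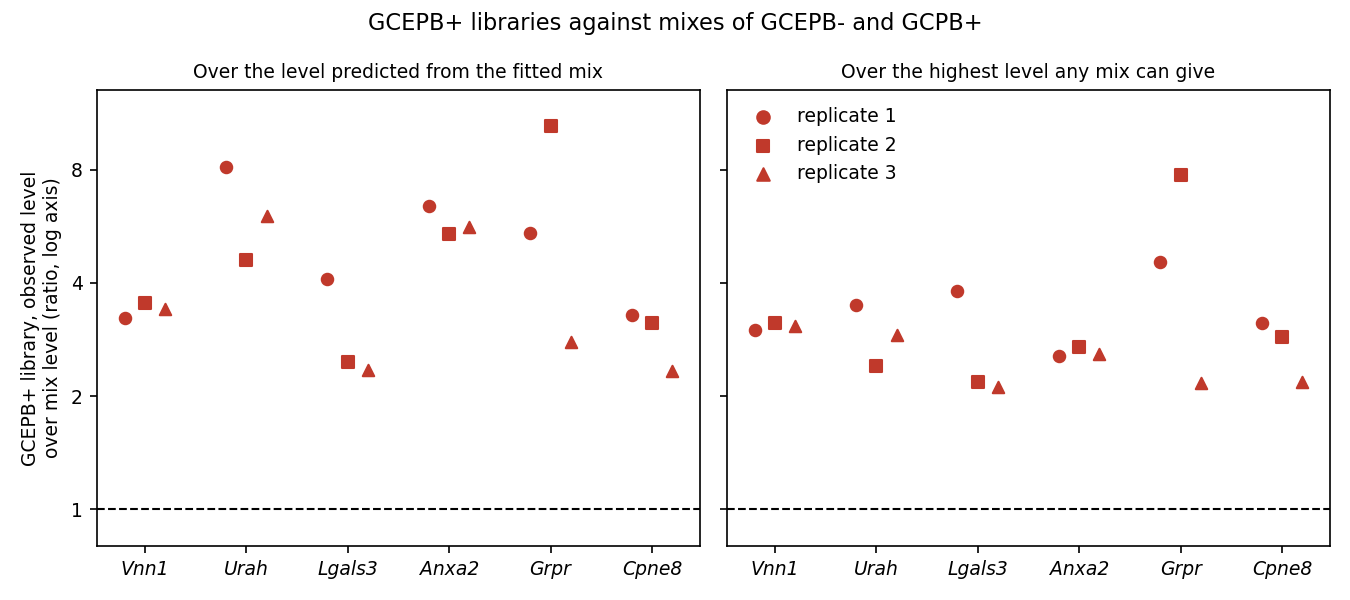
Observed level of each gene in each GCEPB+ library over the level predicted from the fitted mix of GCPB+ and GCEPB- (left) and over the higher of the neighbour means (right), as ratios on a log axis, with the dashed line at 1. All points lie above 2, and Grpr spreads most, between 2.78 and 10.5 on the left.

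The remaining comparisons were not the ones that chose the genes. The GCEPB- and GCPB+ libraries did enter that choice, so their p-values here are not independent of it. Only GPB+ against CTX compares groups that did not enter it. Between the neighbours, GCEPB- against GCPB+ sets EGFR-positive, PDGFRβ-negative cells against EGFR-negative, PDGFRβ-positive cells, so the parts of the 2 markers cannot be told apart. Anxa2 fell by 2.15 ± 0.52 on the log2 scale (SE) in GCEPB- (edgeR quasi-likelihood test with Benjamini-Hochberg adjustment over all genes, adjusted p = 0.00234) and Urah fell by 1.93 ± 0.31 (adjusted p = 6.38e-05). Grpr rose by 1.88 ± 0.64 (adjusted p = 0.0227). Thus 2 of the 6 were lower in GCEPB-, against 24.9% of all genes tested, and 1 was higher, against 23.9%. Together 3 of 6 were called in either direction, close to the 48.8% of all genes. Lgals3 had a log2 fold change of 0.56 ± 0.31 (adjusted p = 0.151), Vnn1 0.58 ± 0.28 (adjusted p = 0.101) and Cpne8 0.35 ± 0.38 (adjusted p = 0.465). The Grpr call was lost without GCEPB- replicate 2 (adjusted p = 0.0571), GCPB+ replicate 1 (0.0658) or GCPB+ replicate 2 (0.0736). With no filter on low FPKM it was lost as well, at 0.83 in limma on log2(FPKM + 1) (adjusted p = 0.0732). In the FPKM table Vnn1 and Lgals3 passed, and Cpne8 changed sign.

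Marker lists of cell types also differed between these groups, in both directions. The astrocyte and quiescent stem cell genes summed to 2994 to 3223 CPM in GCEPB- and 59903 to 71435 CPM in GCPB+. The pericyte and smooth muscle genes summed to 5.48 to 17.3 CPM in GCEPB- and 44.6 to 57.5 CPM in GCPB+. The summed level of the neuroblast genes was 894 to 1169 CPM in GCEPB- and 37.9 to 64.0 CPM in GCPB+, and that of the activated stem and transit-amplifying genes 3417 to 3799 CPM in GCEPB- and 37.1 to 45.4 CPM in GCPB+. The summed level of 10 ependymal genes was 5.88 to 12.4 CPM in GCEPB- and 76.5 to 92.4 CPM in GCPB+, that of 7 fibroblast genes 7.59 to 9.68 CPM in GCEPB- and 78.0 to 80.3 CPM in GCPB+, and that of 9 mature oligodendrocyte genes 14.97 to 77.7 CPM in GCEPB- and 767 to 1084 CPM in GCPB+. Of the fibroblast genes, Dcn and Lum were at 0 in all libraries of both groups, and Col1a1 alone was at 0.44 to 2.08 CPM in GCEPB- and 54.4 to 67.4 CPM in GCPB+. The part of these markers in the Anxa2, Urah and Grpr differences was not tested.

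GCPB+ and GPB+ cells differ by the CD133 gate alone. Their libraries overlapped for 5 of the 6 genes. For Urah all GCPB+ libraries lay above those of GPB+ on the CPM scale but overlapped on the FPKM scale. The share of all genes with such a gap was not counted, so nothing is read from it. None of the 6 passed the edgeR test, and 5 genes did in all (0.0307%), 0.0245% higher and 0.00613% lower in GCPB+. With the replicate block 2 genes were called higher and 0 lower. The largest shifts were 0.63 ± 0.30 for Urah (unadjusted p = 0.0499, adjusted p = 0.693), the only member under an unadjusted p of 0.05, and -1.17 ± 0.64 for Grpr (adjusted p = 0.739). Vnn1, Lgals3, Anxa2 and Cpne8 had log2 fold changes between -0.28 and 0.11. DESeq2 called none of the 6 either.

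GPB+ V-SVZ cells differed from cortical astrocytes in 4 of the 6 genes. Urah rose by 4.94 ± 0.40 on the log2 scale (adjusted p = 1.01e-06), Lgals3 by 4.06 ± 0.38 (adjusted p = 5.4e-06), Anxa2 by 3.98 ± 0.57 (adjusted p = 0.000366) and Vnn1 by 1.84 ± 0.30 (adjusted p = 0.00112), in edgeR. Those 4 of 6 genes compare with 4.04% of all genes tested called higher in GPB+, and 6.74% called in either direction. In each of the 4 all GPB+ libraries lay above all CTX libraries, as for 12% of genes tested. Grpr (1.36 ± 0.66, adjusted p = 0.263) and Cpne8 (0.08 ± 0.38, adjusted p = 0.954) did not pass, and their GPB+ and CTX libraries overlapped. The same count of 4 was found under each of the 16 alternatives tried. The summed level of the ependymal genes was also higher in GPB+, at 64.9 to 79.9 CPM in GPB+ and 25.96 to 37.6 CPM in CTX, and so were the summed levels of 9 neuroblast genes, at 48.8 to 64.7 CPM in GPB+ and 14.05 to 20.9 CPM in CTX, and of 8 genes of activated stem and transit-amplifying cells, at 35.4 to 52.0 CPM in GPB+ and 10.7 to 15.05 CPM in CTX. The fibroblast genes summed to 92.7 to 111 CPM in GPB+ and 47.0 to 64.9 CPM in CTX, a difference that lay in Col1a1, at 59.7 to 96.7 CPM in GPB+ and 16.9 to 36.4 CPM in CTX. The other 6 fibroblast genes overlapped, at 14.03 to 39.5 CPM in GPB+ and 16.3 to 37.3 CPM in CTX, with Dcn and Lum at 0 in all GPB+ libraries. The part of these markers in the result was not tested.

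**Figure D4:**
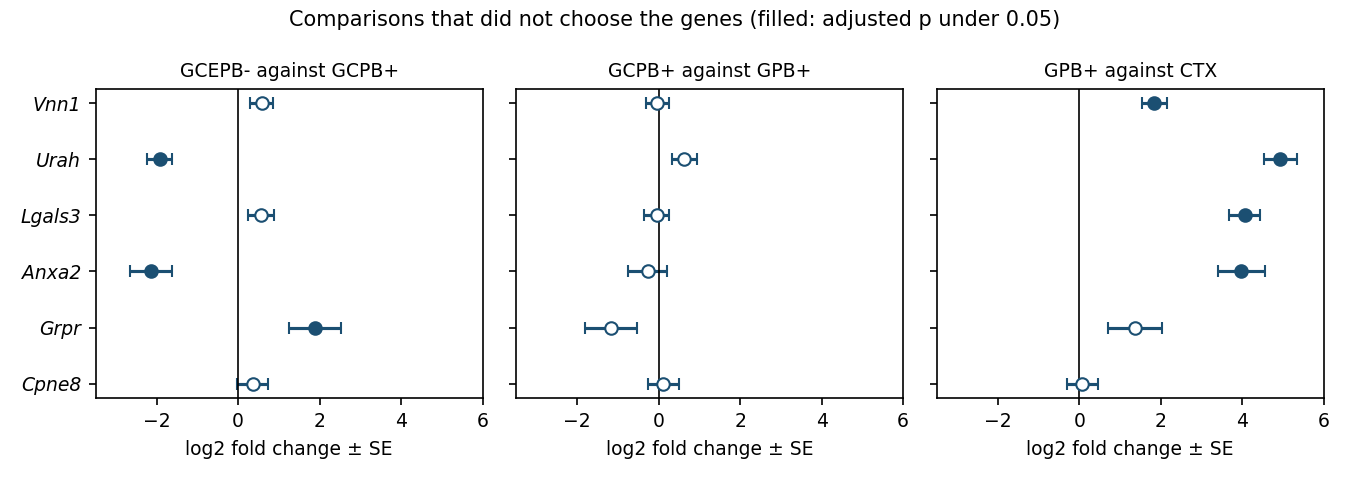
Log2 fold change ± SE from the edgeR fit for the 6 genes in the comparisons other than those that chose them. Filled points have an adjusted p under 0.05. The GCEPB- and GCPB+ libraries entered the choice. The 4 filled points of GPB+ against CTX lie between 1.84 and 4.94, and GCPB+ against GPB+ has no filled point.

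Galectin-3 is also a gene of microglia and macrophages, so their markers are given beside it. The 15 listed genes summed to 17.1, 25.4 and 68.7 CPM in GCEPB+ replicates 1, 2 and 3, against 26.5, 7.73 and 9.50 CPM in GCEPB- and 19.9, 24.7 and 18.8 CPM in GCPB+. Much of the GCPB+ sum was P2ry12, at 10.2, 23.1 and 15.5 CPM there and at 21.8 to 25.4 CPM in CTX. Without it the other 14 genes summed to 10.4, 14.99 and 50.2 CPM in GCEPB+, against 23.1, 7.59 and 8.65 CPM in GCEPB- and 9.65, 1.56 and 3.26 CPM in GCPB+. All GCEPB+ libraries thus lay above those of GCPB+, as for Lgals3, and overlapped with GCEPB- through its replicate 1 only. Of the GCEPB- sums, Cd68 gave 6.36, 7.33 and 8.25 CPM, against 3.03, 3.64 and 3.05 CPM in GCEPB+. Csf1r, Ctss, C1qa, C1qb and Tmem119 were at 0 in GCEPB- replicates 2 and 3. GCEPB+ replicate 1 had the lowest sum of its group and the most Lgals3, but it differed in other lists as well. Its astrocyte and quiescent stem cell genes summed to 8849 CPM, against 13754 and 14041 CPM in replicates 2 and 3. Its neuroblast genes summed to 513 CPM, against 319 and 307 CPM. The macrophage genes Mrc1 and Pf4 were at 0 in all of these libraries, and Ptprc had 2 counts in GCEPB+ replicate 3 and 0 in the other GCEPB+ libraries. Other listed genes were seen, most in GCEPB+ replicate 3. Ctss had 70, 17 and 221 counts in GCEPB+, 112, 0 and 0 in GCEPB- and 101, 8 and 10 in GCPB+. Csf1r had 0, 93 and 212 counts in GCEPB+, 29, 0 and 0 in GCEPB- and 44, 0 and 14 in GCPB+. For Cx3cr1 the counts were 24, 54 and 195 in GCEPB+, 82, 4 and 8 in GCEPB- and 4, 7 and 37 in GCPB+. Trem2, a receptor of microglia, had 33, 27 and 23 counts in GCEPB+ and 0 in the other 12 libraries, which allows up to 3 counts in each. Its signalling partner Tyrobp had 0, 2 and 29 counts in the same GCEPB+ libraries. For Anxa2, which endothelial cells also express, the summed level of 10 endothelial genes was 5.45, 45.8 and 17.3 CPM in GCEPB+. It was 4.59 to 16.1 CPM in GCEPB- and 0.295 to 21.1 CPM in GCPB+. The part of these cells in the Lgals3 and Anxa2 levels was not tested.

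Relatives and partners of the 6 genes were examined in lists, and these were tested in every comparison. No gene of the lists was called higher in GCEPB+ against both neighbours in the edgeR fit, where 0.178% of all genes were. Tnc, on the reactive astrocyte list, was called against both with the replicate block, with DESeq2, without a filter on low counts, with a filter of 5 CPM and in the FPKM fits, in which S100a4 was called as well. Against GCPB+, 18.1% of all genes were called higher and 18% lower, and against GCEPB- 9.28% were higher and 1.85% lower.

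Of 8 other annexins tested, 1 rose in GCEPB+ against GCPB+ and 3 fell, and 3 rose against GCEPB-. Anxa6 averaged 142 CPM in GCEPB+, 56.3 CPM in GCEPB- and 305 CPM in GCPB+, with a log2 fold change of -1.10 ± 0.22 against GCPB+ and 1.34 ± 0.22 against GCEPB- (adjusted p = 0.000786 and 0.000501). Anxa5 and Anxa7 followed the same order, intermediate in GCEPB+. The median log2 fold change of the list was -0.74 against GCPB+ (0.11 for all genes) and 0.76 against GCEPB- (0.03 for all genes). S100a10, which encodes the partner of annexin A2, was scarce, with a mean of 2.08 ± 1.12 CPM in GCEPB+, 2.18 ± 0.80 CPM in GCEPB- and 0.54 ± 0.38 CPM in GCPB+ (SD, n = 3).

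Of 11 genes tested among the S100 genes and Ahnak, 1 rose in GCEPB+ against GCPB+ and 4 fell, and 6 rose against GCEPB-. Ahnak, a large scaffold protein that binds the annexin A2 complex, averaged 22.1 CPM in GCEPB+, 3.63 CPM in GCEPB-, 24.05 CPM in GCPB+, 31.5 CPM in GPB+ and 2.63 CPM in CTX. Like Anxa2 it rose in GPB+ against CTX (3.58 ± 0.49, adjusted p = 0.000221) and fell in GCEPB- against GCPB+ (-2.73 ± 0.47, adjusted p = 0.000117), but against GCPB+ it was at -0.12 ± 0.43 in GCEPB+ (adjusted p = 0.861). S100a4, a calcium-binding protein, was at 1.12 ± 0.46 against GCPB+ (adjusted p = 0.0678) and rose by 3.72 ± 0.52 against GCEPB- (adjusted p = 0.00011). In the plasminogen system 4 of 8 genes were tested, and Serpine2, which encodes the protease inhibitor nexin-1, fell in GCEPB+ against GCPB+ (-2.38 ± 0.16) and rose against GCEPB- (2.19 ± 0.16).

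Of 8 other galectin genes and partners tested, none rose in GCEPB+ against GCPB+ and 6 fell, while 4 rose against GCEPB-. Lgals3bp, which encodes a glycoprotein that binds galectin-3, averaged 9.70 CPM in GCEPB+, 0.91 CPM in GCEPB- and 52.2 CPM in GCPB+. In GPB+ against CTX 1 gene of this list rose and 1 fell: Lgals12 by 2.36 ± 0.52 (adjusted p = 0.0108), a call lost without CTX replicate 2, and Lgals1, named after its value was seen, at -1.66 ± 0.30 (adjusted p = 0.00244). Of 6 other copines tested, Cpne2 and Cpne6 fell in GCEPB+ against GCPB+ and both rose against GCEPB-, and none rose against GCPB+. Cpne2 averaged 13.8 CPM in GCEPB+, 5.03 CPM in GCEPB- and 57.4 CPM in GCPB+.

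Of 13 genes of pantetheine and coenzyme A metabolism tested, 1 rose in GCEPB+ against GCPB+ and 4 fell, and 4 rose against GCEPB-. Btd, the gene of biotinidase and a relative of the vanins, fell by 1.23 ± 0.20 against GCPB+ (adjusted p = 0.000151), and Pank4, of the pantothenate kinase family, rose by 1.40 ± 0.31 (adjusted p = 0.00209). Vnn3, the neighbouring family member, had 0 counts in GCEPB+, GCEPB- and GCPB+. Of 7 genes of purine breakdown and urate transport tested, 3 rose in GCEPB+ against GCPB+ and 3 fell, and 1 rose against GCEPB-. Aox1, an aldehyde oxidase, averaged 6.45 CPM in GCEPB+, 0.19 CPM in GCEPB- and 44.2 CPM in GCPB+, whereas Abcg2, which encodes a urate exporter, averaged 11.4 CPM in GCEPB+, 17.0 CPM in GCEPB- and 0.67 CPM in GCPB+. The enzymes on either side of Urah in the pathway, picked out after their values were seen, were near or at 0. Uox, urate oxidase, had 40 counts over the 3 GCEPB+ libraries, 2 over those of GCEPB- and 4 over those of GCPB+, and Urad, which acts after Urah, had 0 in all 15 libraries.

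Grp, the gene of the peptide that Grpr binds, had 0 counts in all 15 libraries. The related peptide gene Nmb averaged 1.74 ± 0.68 CPM in GCEPB+, 1.61 ± 0.66 CPM in GCEPB- and 3.43 ± 0.73 CPM in GCPB+. Of 9 genes of this list tested, none rose in GCEPB+ against GCPB+ and 4 fell, among them Plcb3 (-1.92 ± 0.40, adjusted p = 0.00127) and Plcb1 (-1.75 ± 0.24, adjusted p = 2.31e-05), which encode phospholipases activated by receptors of this class. Itpr2, the calcium release channel gene, rose against GCEPB- (1.94 ± 0.18). Among 11 reactive astrocyte genes tested, 2 rose in GCEPB+ against GCPB+ and 2 fell, and 4 rose against GCEPB-. Osmr, the receptor gene for oncostatin M, averaged 3.17 CPM in GCEPB+, 0.013 CPM in GCEPB- and 3.05 CPM in GCPB+, while Serpina3n, a serine protease inhibitor gene, averaged 30.1 CPM in GCEPB+, 6.14 CPM in GCEPB- and 183 CPM in GCPB+.

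Likeness among the 6 profiles was measured as the root mean square difference of log2 levels over the 15 libraries after centring each gene, as a description over libraries that share groups. The closest pair was Urah and Anxa2 at 0.53, both lower in GCEPB- than in GCPB+, followed by Vnn1 and Lgals3 at 0.67, which share the order GCEPB+, GCEPB-, GPB+, GCPB+ and CTX. Grpr and Cpne8 were at 0.74, hardly closer than Vnn1 was to Grpr (0.77), Urah (0.79) and Cpne8 (0.82), and Anxa2 and Grpr were the least alike at 1.40. Of 12212 genes compared, the nearest were Rnd3 (0.43) and Pipox (0.47) to Vnn1, Tnc (0.66) and Gbp2 (0.66) to Urah, Kcne1l (0.53) and Bgn (0.58) to Lgals3, Tshr (0.70) and AK047676 (0.71) to Anxa2, Gria1 (0.57) and Dnah2 (0.63) to Grpr, and AK135004 (0.36) and Dnal1 (0.37) to Cpne8. The measure spans all 5 groups, so a near gene need not peak in GCEPB+. Kcne1l averaged 165 CPM in GCEPB+ and 168 CPM in GCEPB-, and AK047676 29.9 CPM in GCEPB+ and 26.7 CPM in GPB+. Tnc, which encodes the matrix protein tenascin-C and is also on the reactive list, averaged 135 CPM in GCEPB+, 22.5 CPM in GCEPB-, 74.4 CPM in GCPB+, 41.5 CPM in GPB+ and 15.8 CPM in CTX. The order of its group means was that of Urah.

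In the edgeR fit 29 genes (0.178%) were called higher in GCEPB+ against both neighbours. The 6 genes are among these 29, as the way they were chosen would have it, and nothing is read from that. Of the others with 20 CPM or more in GCEPB+, Notum encodes an enzyme that inactivates Wnt proteins and averaged 58.1 CPM in GCEPB+, 17.99 CPM in GCEPB- and 3.64 CPM in GCPB+. Veph1 averaged 76.5 CPM in GCEPB+, 35.3 CPM in GCEPB- and 10.2 CPM in GCPB+. Pipox, a peroxisomal oxidase of pipecolic acid and also next to nearest to Vnn1, averaged 150 CPM in GCEPB+, 84.3 CPM in GCEPB- and 36.8 CPM in GCPB+. Tnfrsf19, a receptor of the tumour necrosis factor family, averaged 911 CPM in GCEPB+, 515 CPM in GCEPB- and 348 CPM in GCPB+. Fzd5, a Wnt receptor, was at 30.6 CPM in GCEPB+, 10.6 CPM in GCEPB- and 16.7 CPM in GCPB+ but highest in GPB+ at 44.9 CPM. Thrsp, Gstm7 and Atxn1 completed these. The number called against both fell to 15 without GCEPB- replicate 1 and 16 without GCEPB+ replicate 2. With a library of GCEPB+, GCEPB- or GCPB+ left out, 3 to 6 of the 6 genes stayed among those called. The fewest stayed without GCEPB+ replicate 2, where Anxa2, Grpr and Cpne8 were missing. Cpne8 was also missing in the FPKM fits. All these calls come from the comparisons that chose the 6 genes, so they describe the fits and are no test of the genes.

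**Figure D5:**
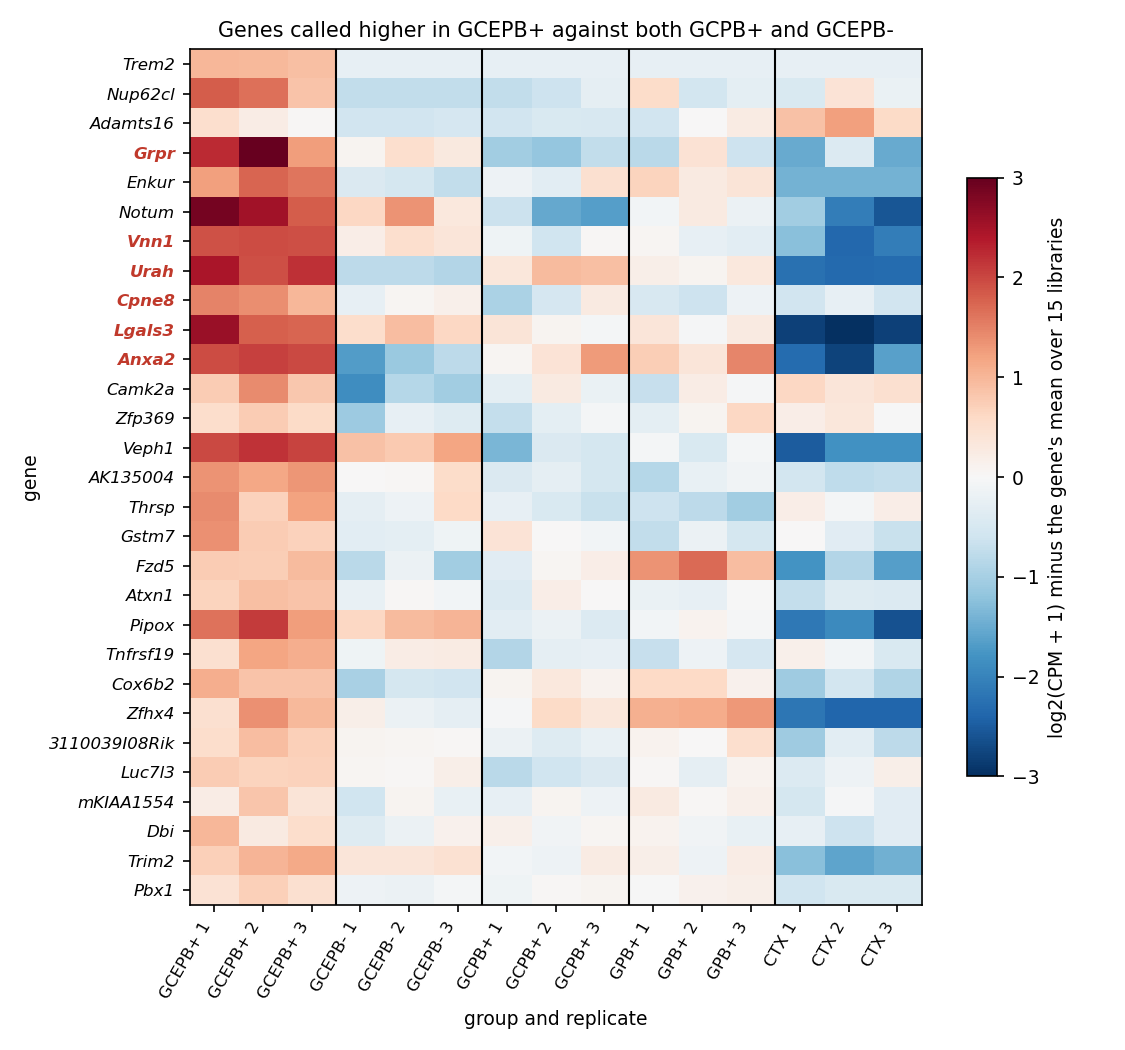
The 29 genes called higher in GCEPB+ against both GCPB+ and GCEPB-, as log2(CPM + 1) minus the mean of each gene over the 15 libraries, ordered by the smaller of the 2 fold changes; red is above and blue below the mean of the gene. The 6 genes described here are in red type; Urah, Lgals3, Anxa2 and Vnn1 are blue in CTX, and Urah and Anxa2 are blue in GCEPB-.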

How the data were processed

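Cells were sorted into RNA isolation reagent, and cDNA was amplified from poly(A) tails with a kit for very small inputs and tagmented, per the labels' protocols. Tools named in the submitters' processing notes are HTSeq, Cufflinks, TopHat2 2.1 and cutadapt, with mm10. The gene models, the strand option and the handling of reads with several matches are not given in the sources used here. A table deposited by the authors holds raw counts by gene symbol and another holds FPKM, scaled to length and library size. Of 32763 rows in the count table, 28 named no gene (27 date-like symbols and 1 called unknown, 0.184% to 0.323% of counts) and were left out. The FPKM columns headed as symbol and position were found exchanged.

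Counts were tested with edgeR 4.0.16 (R 4.3.3; TMM factors 0.825 to 1.22, its default filter on low counts, quasi-likelihood F test on all 15 libraries in 5 groups), with Benjamini-Hochberg adjustment over 16302 genes and a threshold of 0.05. The SE is the log2 fold change divided by the root of F. limma 3.58.1 on log2(FPKM + 1) and DESeq2 1.42.0 were alternatives. Replicate numbers recur in the labels, but no label says whether replicates were separate sorts or animals, and the p-values reflect the spread among libraries, which may be technical. Deviations of same-numbered libraries correlated at 0.173 to 0.271 for GCEPB+ with GCPB+ and 0.212 to 0.285 for GCPB+ with GPB+, and on this evidence alone the numbers may pair the libraries there. The values given have no block, and a replicate block was an alternative. A count of 0 allows up to 3 counts, and this covers counting error only, since reads carry no molecular identifiers.

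The 6 genes and all gene lists were chosen with earlier results of these data known. Beside them the text names, by rule, up to 4 genes per related list with the largest called changes, known partners, the 2 nearest genes to each in profile, and genes called higher in GCEPB+ against both neighbours with at least 20 CPM and no overlap. Motifs were searched on both strands of RefSeq promoter windows (GRCm38.p6).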

Additional observations from a re-analysis of the deposited data

How the results depend on the processing

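The 6 genes had 288 recomputed fold changes in the 3 comparisons other than those that chose them. Of these, 267 kept their direction and side of the threshold, 4 dropped below it, 6 passed it and 11 changed sign. In GPB+ against CTX 4 genes were called higher under all 16 alternatives. In GCEPB- against GCPB+ the 1 gene called higher became 3, 3 and 2 with limma on log2(FPKM + 1), log2(FPKM + 0.1) and log2(FPKM + 1) without a filter, and 0 to 1 when a library was left out. There Cpne8 reversed to -0.241, -0.261 and -0.241 in those FPKM fits; the counts and FPKM of this gene disagree as described above. When single libraries were left out, values not called and near 0 changed sign. In GCPB+ against GPB+ these ran from -0.179 to 0.128 for Vnn1, -0.199 to 0.0512 for Lgals3, -0.401 to 0.396 for Cpne8 and -0.755 to 0.113 for Anxa2, and in GPB+ against CTX from -0.0846 to 0.223 for Cpne8.

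Counts over all genes moved more. In GCEPB+ against GCEPB- the 301 genes called lower became 545 with DESeq2, 528 with the replicate block, 499 with the 2 groups alone, 708 with limma on log2(FPKM + 1) and 668 without its filter, and 120 to 406 with a library left out. In GCEPB+ against GCPB+ the 2956 called higher became 4567, 4460 and 4490 in the FPKM fits. In GPB+ against CTX the 440 called lower became 758 with DESeq2 and 701 with limma on log2(FPKM + 1), and 217 to 291 with a library left out, when the 658 called higher became 368 to 603. In GCPB+ against GPB+ the 4 called higher and 1 lower became 24 and 15 with DESeq2, 2 and 0 with the replicate block, and 1, 1 and 2 higher with 0, 0 and 2 lower in the FPKM fits. There 1 gene was higher with the 2 groups alone, 2 were lower without a filter on low counts and with a filter of 5 CPM, and leaving out a library gave 0 to 2 higher and 0 to 1 lower. Pairing by replicate number changed no call of the 6 genes in the 3 comparisons other than those that chose them. The 29 genes called against both neighbours, a count added after seeing the data, became 15 to 27 with a library left out, 41 with DESeq2, 40 with the replicate block and 108, 71 and 107 in the FPKM fits. The causes were not tested. Other scalings moved the median of all genes by at most 0.03 on the log2 scale.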
